A study of Mus musculus with 12 samples.

Results

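The 45 genes described here are the proteasome genes of the mouse retina, chosen by name. They are the entries of the authors' scaled count table whose symbol starts with Psma, Psmb, Psmc, Psmd, Psme or Psmf and a number. With 5 pseudogene names set aside, 47 names matched, and 45 of them had at least 10 scaled counts in at least 3 of the 12 libraries. The same count rule kept 17273 of the 56748 entries in the table. Psma8, the testis counterpart of an alpha ring gene, and Psmb11, a catalytic subunit of the thymus, did not reach it: both were at 0 in all 6 rod libraries and at no more than 3 scaled counts in any retina library. Psmc3ip, a cofactor of meiotic recombination, and Psme3ip1, a partner of the Psme3 protein, match the name without being subunits, which leaves 43 proteasome genes.

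The libraries came from retinas of 2-month-old mice. All mice carried RiboTag, a tagged ribosomal protein switched on by Cre, and the rod driver i75-Rod-Cre, a rhodopsin-Cre. The control littermates were Abca4+/+, and the knockout mice, written Abca4Ko, were Abca4-/- in every cell. Abca4 encodes the retinoid transporter of photoreceptor discs. From each genotype there were 3 libraries of RNA on tagged rod ribosomes (translating ribosome affinity purification, TRAP) and 3 of the whole retina lysate, so that 4 groups of 3 libraries were compared. The labels do not say whether the 3 libraries of a group came from separate mice, so p-values measure the spread between these libraries, which may be technical.

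Abca4 itself was read first as a check of the labels. Control rod TRAP libraries had 61017, 53193 and 53533 scaled counts and those labelled Abca4Ko had 195, 365 and 13156. In the retina the control libraries had 38929, 37619 and 38090 and those labelled Abca4Ko had 153, 366 and 8124. The groups did not overlap, but replicate 3 of Abca4Ko kept far more Abca4 than replicates 1 and 2 in both fractions, and results that rest on it are given with and without it. Scaled totals were nearly equal within a fraction, between 17096515 and 17097707 in rod TRAP and between 17860761 and 17862326 in retina. The steps between low values put the depth before scaling, in units of 1000000 reads, at 16.2 to 18.2 in the 4 of 6 rod TRAP libraries where it could be read and at 14.8 to 23.2 in 5 of 6 retina libraries. The rod label held against its markers: in control, all 14 rod markers were higher in rod TRAP than in retina, and all 11 Müller glia markers, all 9 amacrine markers and 11 of 12 microglia markers were lower.

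The proteasome degrades proteins that carry ubiquitin chains. Its barrel-shaped core is built from rings of alpha subunits, which form the gate, and beta subunits, of which Psmb5, Psmb6 and Psmb7 cut the chain. Interferon induces the alternative catalytic subunits Psmb8, Psmb9 and Psmb10, which replace them in the immunoproteasome of immune and inflamed cells, together with the cap formed by Psme1 and Psme2. The regulatory particle caps the core: its base unfolds the substrate with the ATPases Psmc1 to Psmc6, and its lid removes the ubiquitin. Rods renew their outer segments daily and depend on protein turnover, and proteasome load is a known theme in photoreceptor disease.

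Promoter sequences are shown for the members that differed most between the fractions, so that the regulatory sequence can be read beside the values. RefSeq on GRCm38.p6, an older build than the GRCm39 named in the submitters' processing notes, gave the 250 bases before the start of 39 of the 45 members. The 6 without an entry were Psmb1, Psmb2, Psmb7, Psmc3, Psmd3 and Psmd7. Each window was searched on both strands for the core of the antioxidant response element (TGACNNNGC), for an interferon response motif (GAAA, any 2 bases and GAAA again), for the gamma-activated site (TTCNNNGAA) and for CCAAT. Capitals mark a match to the first 3. Psmb8 lies at chr17:34197945-34198194 on the + strand, Psmb9 at chr17:34187331-34187580 on the - strand and Psme1 at chr14:55578244-55578493 on the + strand, and these are the interferon-induced genes that were lowest in rod TRAP.
Psmb8: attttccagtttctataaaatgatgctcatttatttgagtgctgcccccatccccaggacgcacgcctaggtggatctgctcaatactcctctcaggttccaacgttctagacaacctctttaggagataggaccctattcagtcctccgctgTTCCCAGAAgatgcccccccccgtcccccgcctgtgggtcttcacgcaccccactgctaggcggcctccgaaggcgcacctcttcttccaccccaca
Psmb9: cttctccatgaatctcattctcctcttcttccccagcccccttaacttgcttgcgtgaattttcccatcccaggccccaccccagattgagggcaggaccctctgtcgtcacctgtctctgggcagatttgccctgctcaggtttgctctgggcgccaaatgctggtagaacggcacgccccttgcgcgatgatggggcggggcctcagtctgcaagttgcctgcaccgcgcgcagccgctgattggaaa
Psme1: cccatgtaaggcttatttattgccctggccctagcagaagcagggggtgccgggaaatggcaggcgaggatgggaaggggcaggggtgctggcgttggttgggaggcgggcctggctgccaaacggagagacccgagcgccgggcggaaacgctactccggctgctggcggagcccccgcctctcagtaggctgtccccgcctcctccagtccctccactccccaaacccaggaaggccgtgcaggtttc
Psmc6, at chr14:45329574-45329823 on the + strand, and Psme4, at chr11:30771525-30771774 on the + strand, were the members highest in rod TRAP relative to the retina.
Psmc6: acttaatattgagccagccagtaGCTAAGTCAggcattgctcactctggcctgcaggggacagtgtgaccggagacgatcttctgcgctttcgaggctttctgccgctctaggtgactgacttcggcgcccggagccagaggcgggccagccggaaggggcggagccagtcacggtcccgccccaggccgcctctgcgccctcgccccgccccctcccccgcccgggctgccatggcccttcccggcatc
Psme4: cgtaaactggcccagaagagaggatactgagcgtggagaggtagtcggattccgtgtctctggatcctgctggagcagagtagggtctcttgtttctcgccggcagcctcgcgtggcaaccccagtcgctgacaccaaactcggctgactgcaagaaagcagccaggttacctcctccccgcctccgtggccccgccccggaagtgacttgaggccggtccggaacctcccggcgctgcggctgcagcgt
The gamma-activated site, a palindrome, starts 97 bases before the start of Psmb8, and the antioxidant motif starts 227 bases before the start of Psmc6. The windows of Psmb9, Psme1 and Psme4 hold none of the 3 motifs.

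The shares of members with each motif were set beside those of all promoters of the same length. The antioxidant core was in 5 of 39 members (12.8%; Psmb5, Psmb6, Psmc6, Psmd9 and Psmd12) and in 10.1% of 27025 genes. The interferon response motif was in 3 of 39 (7.69%; Psmb3, Psmd4 and Psmd9) and in 3.04% of genes, and the gamma-activated site was in Psmb8 alone (2.56%) and in 7.18% of genes. CCAAT was in 14 of 39 members (35.9%) and in 34.5% of genes. A match is a run of letters and not a measured binding site.

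Levels between genes were compared in TPM, the authors' abundance values scaled by transcript length and library total, as the mean ± SD over the 6 libraries of a fraction. The 14 constitutive core genes ranged 4.08-fold in rod TRAP, from Psma2 in the alpha ring at 81.3 ± 2.0 TPM to the catalytic Psmb6 at 332 ± 13.7, and 4.94-fold in retina, from Psma2 at 79.1 ± 4.4 to Psmb6 at 391 ± 49.2. In the alpha ring the highest gene was Psma3, whose tail helps to close the gate, at 179 ± 13.8 in rod TRAP, and Psma7 at 223 ± 20.5 in retina. Among the structural beta genes Psmb1 was lowest (95.5 ± 3.26 in rod TRAP and 105 ± 10.9 in retina) and Psmb4 highest (256 ± 13.1 and 281 ± 28.5). The other catalytic genes were Psmb5 at 149 ± 16.2 and 199 ± 44.2 and Psmb7 at 192 ± 8.89 and 168 ± 17.1, and their ranges over libraries overlapped in retina.

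The 17 genes of the regulatory particle base and lid ranged 4.53-fold in rod TRAP and 6.61-fold in retina. Among the base ATPases the highest level was 2.15 times the lowest in rod TRAP and 6.61 times in retina. Psmc3 was the highest ATPase in both (221 ± 9.02 and 265 ± 23.1 TPM), whereas the lowest was Psmc2 at 103 ± 5.33 in rod TRAP and Psmc6 at 40.1 ± 19.2 in retina. Of the other base genes the scaffold Psmd1 was lowest (95.1 ± 4.45 and 45.8 ± 12.2) and the ubiquitin receptor Psmd4 highest (183 ± 8.35 and 176 ± 18.2). In the lid the scaffold subunit Psmd11 was lowest (48.8 ± 3.24 and 45.0 ± 5.93) and Psmd8 highest (217 ± 29.9 and 233 ± 38.1). The assembly chaperones of the base had lower mean levels than any lid gene, from Psmd10 (16.2 ± 1.31 and 15.4 ± 1.62) to Psmd9 (35.5 ± 5.64 and 37.2 ± 3.63).

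The inducible subunits and caps covered a much wider range. In rod TRAP Psmb8 was at 0.1 ± 0.11 TPM, Psmb9 at 0.133 ± 0.197 and Psmb10 at 9.77 ± 3.53, against 9.1 ± 3.47, 2.4 ± 1.15 and 29.2 ± 4.65 in retina. For every 1000 TPM of the constitutive catalytic genes, the 3 inducible genes together had 9.99 to 24.5 TPM in control rod TRAP, 12.3 to 16.8 in Abca4Ko rod TRAP, 49.4 to 58.0 in control retina and 46.0 to 58.6 in Abca4Ko retina. The fractions did not overlap, and the genotypes overlapped within each. Among the caps, Psme3, the nuclear activator, was highest (79.6 ± 3.42 and 86.4 ± 11.3), and Psme2b, a near copy of Psme2, was listed at 0 in all rod TRAP libraries and at up to 0.8 in retina. The inhibitor Psmf1 was at 31.8 ± 2.16 and 39.8 ± 6.84. All members together made up 0.468 to 0.492% of the TPM in rod TRAP and 0.422 to 0.527% in retina. Over both genotypes, 10 members were higher and 8 lower in rod TRAP with no overlap between the 6 TPM values of each fraction. Of 16931 genes that met the count rule, 15.7% were higher and 31.6% lower in the same way.

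**Figure D1:**
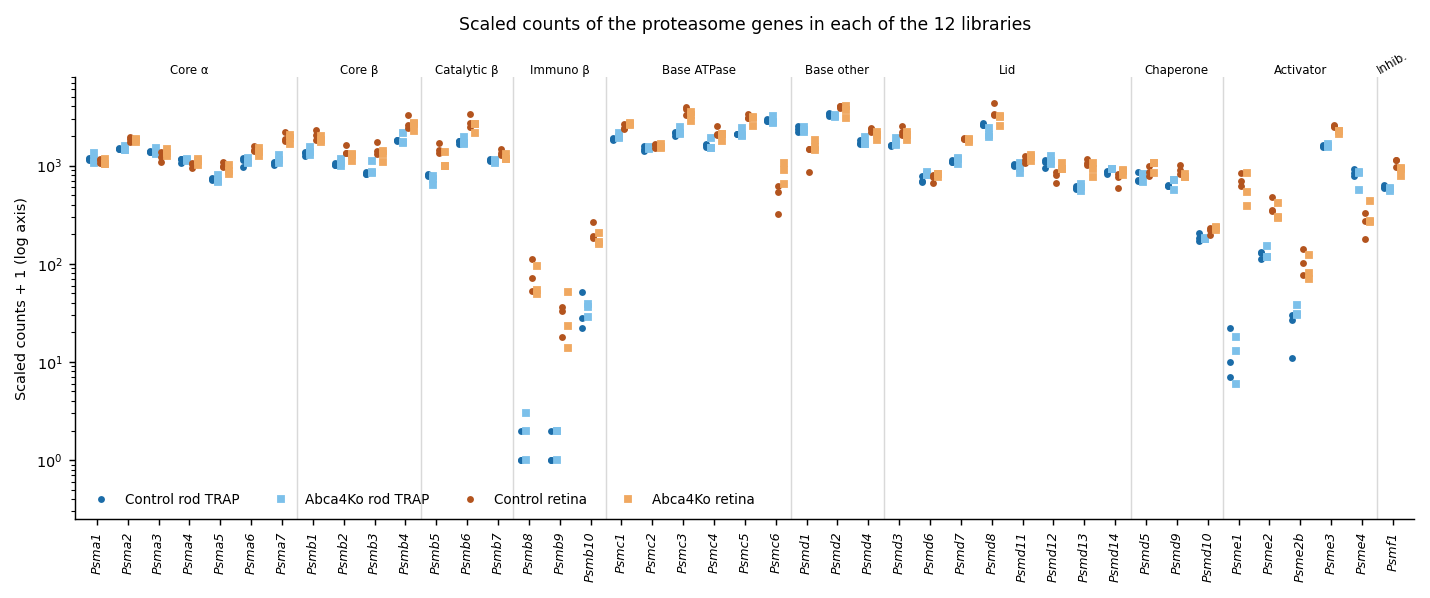
Scaled counts plus 1 (vertical log axis) of the 43 proteasome genes (horizontal axis, by subcomplex), with a point for each of the 12 libraries coloured by group. Psmb8, Psmb9 and Psme1 drop towards the floor in the 6 rod TRAP libraries, and Psmc6 and Psme4 stand above their retina values there. Psmc6 ranges from 2680 to 3183 in the rod TRAP libraries, against 319 to 1052 in the retina libraries.

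The first comparison set rod TRAP against whole retina in each genotype, that is, RNA on rod ribosomes against RNA of the whole lysate. The input to cDNA also differed, at 10 ng against 5 ng. Rod markers summed to 242000 TPM in control rod TRAP and 124000 TPM in control retina, on average. Single rod markers differed by up to 4.65 on the log2 scale in control (Rp1). The parts of rod share, ribosome binding and input in the members' values were not tested. In control, 20 members were higher in rod TRAP and 6 were lower by limma at an adjusted p under 0.05. Of all 16286 genes tested, 36.6% were higher and 38.8% lower, against 44.4% and 13.3% of the 45 members. In Abca4Ko, 15 members were higher and 6 lower (33.3% and 13.3%), against 30.4% and 33.7% of 16036 genes. The members' median on the log2 scale was 0.24 in control and 0.25 in Abca4Ko, and that of all genes was -0.03 and 0.00. The 6 lower members were the same in both genotypes, namely Psmb8, Psmb9, Psmb10, Psme1, Psme2 and Psme2b, and 14 of the higher ones were shared. In bulk RNA, fewer cells of a type and less RNA per cell cannot be told apart. Psmb8, Psmb9 and Psme1 had fewer than 3 rod TRAP libraries at 10 scaled counts and passed the filter on low values through the retina, where they are high. The filter thus bears on their call, and they are described below by their counts, without a p-value. Psmb10, Psme2 and Psme2b passed it in rod TRAP as well.

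These values are relative to the trimmed-mean scaling. On the authors' scaling alone the median of all genes was -0.62 in control and -0.49 in Abca4Ko, and the split of calls turned to 4 members higher and 28 lower in control, against 21.0% and 58.6% of all genes. In Abca4Ko it was 3 and 18, against 14.2% and 48.7%. On log2(TPM + 1) it was 11 higher and 13 lower in control (26.8% and 43.6% of genes) and 10 and 5 in Abca4Ko (19.5% and 32.8%). After GC correction it was 22 and 10 in control (38.1% and 38.7%) and 15 and 8 in Abca4Ko (31.5% and 33.4%). The members stayed above the median of all genes by 0.22 and 0.21 on the authors' scaling, against 0.27 and 0.25 here. That excess was smaller without 1 retina library, when genes absent from rod TRAP no longer pass the filter: 0.01, -0.04 and 0.09 without control retina replicate 1, 2 and 3, and 0.14, 0.09 and 0.01 without those of Abca4Ko. Psmc6, Psme4 and Psmd1 were called higher under every alternative in both genotypes, and Psmb10 and Psme2 were called lower under every alternative in both. In control Psmd12 was also called higher under every alternative, and Psme2b lower under every alternative that could test it. At 0.8 TPM or less in every library, Psme2b was too low for the fit on log2(TPM + 1). On the authors' scaling Psme2b was lower in both genotypes (-1.88 and -1.20). Higher calls of the remaining members were not made on the authors' scaling.

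**Figure D2:**
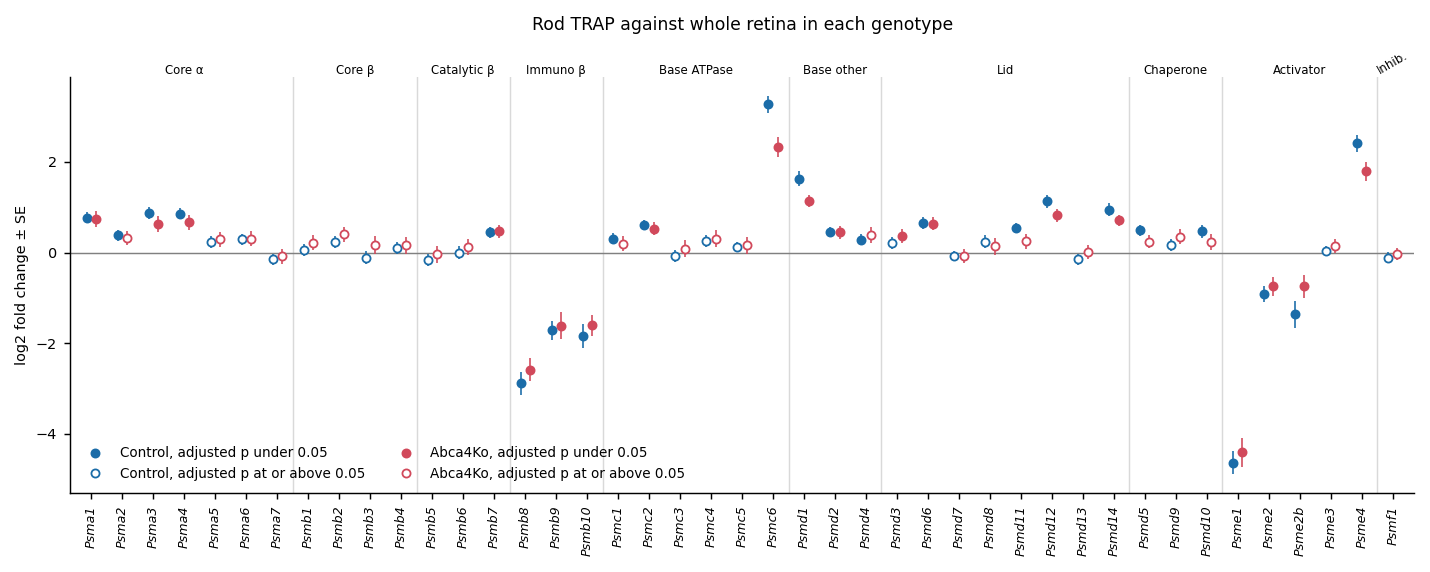
Log2 fold change of rod TRAP against whole retina ± SE (vertical axis) for the 43 proteasome genes by subcomplex (horizontal axis), in control (blue) and Abca4Ko (red). Filled points had a limma adjusted p under 0.05. Points above 0 were higher in rod TRAP: Psmc6 reached 3.27 in control and Psme1 -4.63 (Psme1, Psmb8 and Psmb9 entered the fit through the retina), and no constitutive core gene fell below -0.17.

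In the constitutive core, 5 of 14 genes were higher in rod TRAP and none lower in control, at a median of 0.24. In Abca4Ko 4 were higher and none lower, with a median of 0.30. The share of higher core genes was near that of all genes, 36.6% in control and 30.4% in Abca4Ko. Of all genes 38.8% and 33.7% were lower. The core genes higher in both genotypes were the alpha ring genes Psma1, Psma3 and Psma4 and the trypsin-like catalytic Psmb7, and Psma2 joined them in control. None of the 4 structural beta genes passed the test in either genotype.

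Psmb5, the chymotrypsin-like catalytic subunit, had 808, 824 and 783 scaled counts in control rod TRAP and 1441, 1338 and 1678 in control retina, and 775, 725 and 628 against 992, 1379 and 984 in Abca4Ko. Although the scaled counts did not overlap, the log2 fold change after trimmed-mean scaling was -0.17 ± 0.13 (SE; limma adjusted p = 0.277) in control and -0.04 ± 0.18 (limma adjusted p = 0.857) in Abca4Ko. It was called lower without control retina replicate 2 (-0.32, limma adjusted p = 0.0292) and on the authors' scaling (-0.81 and -0.58, limma adjusted p = 0.000106 and 0.017), and higher in control after GC correction (0.33, limma adjusted p = 0.00752), so that its direction turned with the setting. The caspase-like Psmb6 differed by 0.00 ± 0.14 and 0.12 ± 0.18 and did not pass either (limma adjusted p = 0.988 and 0.577). Psmb7 had 1107, 1128 and 1156 scaled counts in control rod TRAP and 1327, 1279 and 1456 in control retina, and rose by 0.45 ± 0.12 after scaling (limma adjusted p = 0.00497). In Abca4Ko its difference was 0.47 ± 0.15 (limma adjusted p = 0.0149), or 0.37 without retina replicate 3 (limma adjusted p = 0.0538) and 0.48 without rod TRAP replicate 2 (limma adjusted p = 0.0559). For Psmb7 the direction followed the scaling, at -0.19 in control on the authors' scaling.

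All 3 immunoproteasome genes had fewer scaled counts in every rod TRAP library than in any retina library of the same genotype. Psmb8, the inducible counterpart of Psmb5, had 0, 0 and 1 scaled counts in control rod TRAP and 52, 71 and 111 in control retina, and 1, 2 and 0 against 48, 93 and 53 in Abca4Ko. No rod library exceeded 2 scaled counts and no retina library was below 48. Summed over libraries, rod TRAP held 0.446% of the retina's level in control (95% exact interval 0.0113 to 2.51%) and 1.62% in Abca4Ko (0.33 to 4.79%), an interval that covers counting error only. These percentages are sums on the authors' scaling, and the fitted values of such counts in the plot depend on the offset.

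Psmb9, which replaces Psmb6, had 0, 0 and 1 scaled counts in control rod TRAP against 17, 32 and 35 in retina, and 0, 1 and 1 against 13, 50 and 22 in Abca4Ko. Rod TRAP held 1.24% of the retina's level in control (exact interval 0.0311 to 7.12%) and 2.46% in Abca4Ko (0.293 to 9.16%). The fractions did not overlap, and no rod library exceeded 1 scaled count.

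Psmb10, the counterpart of Psmb7, kept a measurable level in rod TRAP. It had 27, 21 and 50 scaled counts there against 183, 191 and 265 in control, and 35, 28 and 38 against 159, 204 and 166 in Abca4Ko. The fractions did not overlap, and rod TRAP held 16.0% of the retina's level in control (exact interval 12.8 to 19.8%) and 19.9% in Abca4Ko (16.0 to 24.7%). After trimmed-mean scaling and with the offset the log2 fold changes were -1.84 ± 0.27 and -1.60 ± 0.23 (limma adjusted p = 3.33e-05 and 9.87e-05). On the authors' scaling, as for the percentages, they were -2.41 and -2.07.

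The caps of the core moved apart. Psme1, the alpha chain of the interferon-induced cap, had 21, 6 and 9 scaled counts in control rod TRAP and 622, 695 and 831 in retina, and 12, 17 and 5 against 387, 848 and 532 in Abca4Ko. The fractions did not overlap. Rod TRAP held 1.75% of the retina's level in control (exact interval 1.22 to 2.43%) and 2.01% in Abca4Ko (1.39 to 2.82%), sums on the authors' scaling. The fitted log2 fold change, which the offset shrinks at such counts, was -4.63 ± 0.26 in control and -4.40 ± 0.32 in Abca4Ko, and over the alternatives it ran from -5.13 to -3.57 in control. Without retina replicate 3 the Abca4Ko value was -4.47, and without rod TRAP replicate 3 it was -4.14.

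Psme2, the beta chain of the same cap, was less depleted. It had 128, 110 and 130 scaled counts in control rod TRAP against 344, 348 and 477 in retina, and 151, 116 and 116 against 288, 410 and 300 in Abca4Ko. It fell by 0.91 ± 0.18 in control and by 0.74 ± 0.21 in Abca4Ko (limma adjusted p = 0.000456 and 0.00902), with no overlap between the fractions. Psme2 and Psme2b share most of their sequence, since 66.2% of the 31-base words of Psme2 recur in Psme2b, so that reads can be split between them. Psme2b had 26, 10 and 29 scaled counts in control rod TRAP against 75, 101 and 139, and 30, 37 and 29 against 69, 123 and 80 in Abca4Ko. It was lower by -1.36 ± 0.30 and -0.74 ± 0.25 (limma adjusted p = 0.0012 and 0.0241), and the Abca4Ko call was lost without rod TRAP replicate 3 (-0.68, limma adjusted p = 0.0817), as it was without rod TRAP replicate 1 or retina replicate 2 (limma adjusted p up to 0.0845).

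Psme4 encodes the single-chain cap PA200, and it went the other way. It had 922, 780 and 834 scaled counts in control rod TRAP and 327, 270 and 179 in retina, and 565, 859 and 845 against 267, 271 and 436 in Abca4Ko. Every rod library was above every retina library, and it was higher by 2.41 ± 0.19 in control and 1.80 ± 0.21 in Abca4Ko (limma adjusted p = 1.2e-07 and 2.08e-05), which is 5.3-fold and 3.49-fold. After GC correction the log2 difference was 1.43 and 1.19, still past the threshold in both. Psme3 differed by 0.03 ± 0.11 and 0.15 ± 0.15 and the inhibitor Psmf1 by -0.11 ± 0.12 and -0.03 ± 0.13, and neither passed the test in either genotype (limma adjusted p = 0.801, 0.428, 0.421 and 0.857).

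In the regulatory particle 10 of 17 base and lid genes were higher in rod TRAP and none lower in control (median 0.31). In Abca4Ko 8 were higher and none lower (median 0.37). Of all genes 36.6% were higher in control and 30.4% in Abca4Ko. Psmc6, an ATPase of the base, had 2817, 2816 and 2951 scaled counts in control rod TRAP and 618, 540 and 319 in retina, and 3183, 2680 and 2749 against 1052, 655 and 906 in Abca4Ko. All rod libraries were above all retina libraries, which varied more among themselves. It had the highest fold change of the members, at 3.27 ± 0.19 in control and 2.33 ± 0.21 in Abca4Ko (limma adjusted p = 8.83e-09 and 4.34e-06), which is 9.66-fold and 5.03-fold. After GC correction the difference was 1.57 and 1.33, still past the threshold in both.

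The remaining ATPases differed less. Psmc2 was higher in both genotypes (0.61 ± 0.12 and 0.53 ± 0.14) and Psmc1 in control (0.31 ± 0.12, limma adjusted p = 0.0297), while Psmc3, Psmc4 and Psmc5 did not pass the test, with values between -0.07 and 0.31. Psmd1, the large scaffold of the base, had 2331, 2496 and 2204 scaled counts in control rod TRAP and 1463, 1457 and 867 in retina, and 2467, 2291 and 2210 against 1431, 1551 and 1839 in Abca4Ko. The fractions did not overlap, and it was higher by 1.63 ± 0.17 and 1.14 ± 0.14 (limma adjusted p = 2.03e-06 and 3.21e-05). The scaffold Psmd2 was higher by 0.45 in each genotype (limma adjusted p = 0.0023 and 0.0162), and the ubiquitin receptor Psmd4 in control (0.28 ± 0.12, limma adjusted p = 0.0478) but not in Abca4Ko (0.39 ± 0.17, limma adjusted p = 0.0616). With the replicate block it passed in Abca4Ko (limma adjusted p = 0.0136) and not in control (limma adjusted p = 0.0636).

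In the lid 4 of 8 genes were higher in each genotype, against 36.6% and 30.4% of all genes, with medians of 0.39 and 0.31. Psmd12, a scaffold subunit of the lid, had 1076, 1139 and 933 scaled counts in control rod TRAP and 868, 801 and 667 in retina, and 1248, 1028 and 1123 against 921, 927 and 1050 in Abca4Ko. The fractions were apart in control and overlapped in Abca4Ko, and the differences were 1.13 ± 0.14 and 0.82 ± 0.15 (limma adjusted p = 7.31e-06 and 0.000511). Psmd14, the deubiquitinase of the lid, was higher by 0.95 ± 0.14 and 0.71 ± 0.13, a call lost after GC correction (-0.15 and 0.06). The scaffold Psmd6 was higher by 0.66 ± 0.13 and 0.64 ± 0.14, in both genotypes. After GC correction Psmd6 was no longer called in control (0.17, limma adjusted p = 0.145) and kept its call in Abca4Ko (0.33, limma adjusted p = 0.0289). Psmd11 passed the test in control only (0.54 ± 0.11 against 0.25 ± 0.16 in Abca4Ko) and Psmd3 in Abca4Ko only (0.37 ± 0.15 against 0.21 ± 0.13 in control), and neither difference between genotypes passed the interaction test. Psmd7, the partner of Psmd14, Psmd8 and Psmd13 did not pass it in either. Of the assembly chaperones, Psmd5 and Psmd10 were higher in control (0.49 ± 0.13 and 0.47 ± 0.15) and none was called in Abca4Ko. After GC correction Psmd10 was called lower in control (-0.62, limma adjusted p = 0.00126) and Psmd5 was at -0.16. Psmc3ip and Psme3ip1, which are no subunits, were higher in both genotypes, Psmc3ip by 0.98 ± 0.18 and 0.84 ± 0.20 and Psme3ip1 by 0.57 ± 0.12 and 0.58 ± 0.15.

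Other genes of the pathway were read from lists, whose counts after GC correction are not given here. Of all genes tested, 36.6% were higher in rod TRAP and 38.8% lower in control, and 30.4% and 33.7% in Abca4Ko. Of 6 further particle components and bound enzymes, 4 were higher and none lower in rod TRAP in both genotypes, led by the proteasome adaptor Ecpas (2.20 in control and 1.65 in Abca4Ko), the deubiquitinase Uchl5 (1.88 and 1.21) and the ubiquitin ligase Ube3c (1.21 and 0.91). Of 12 tested genes of assembly and transcriptional control, 6 were higher and 1 lower in each genotype. The largest were Ngly1, which processes the transcription factor that induces proteasome genes (2.14 and 1.36), Zfand5, a proteasome activator (1.80 and 0.98), and Ddi2, a protease of the same pathway (1.49 and 1.07). Of 13 ubiquitin and shuttle genes, 8 were higher and 1 lower in control and 7 higher and none lower in Abca4Ko, with the segregase Vcp at 1.35 and 1.09 and the shuttle Ubqln1 at 1.28 and 0.88. On the authors' scaling alone the 3 lists had 4 higher and 2 lower, 4 and 6, and 3 and 6 genes in control.

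Genes of antigen processing and the interferon response split in both directions. Of 12 tested, 7 were lower and 3 higher in rod TRAP in control and 6 lower and 3 higher in Abca4Ko. Of all genes 38.8% and 33.7% were lower and 36.6% and 30.4% higher. Their summed level overlapped between the fractions, at 214 to 243 TPM in rod TRAP and 223 to 451 TPM in retina. The largest changes were in B2m, the light chain of class I molecules (-4.80 in control and -5.17 in Abca4Ko), Irf1, an interferon-response transcription factor (-2.91 and -2.88), and Tap1, a peptide transporter (-2.53 and -2.09). Markers of microglia were lower as well. Of them 11 of 12 were lower in control and 10 of 11 in Abca4Ko. Their summed level was 30.2 ± 0.907 TPM in control rod TRAP and 27.7 ± 2.57 in Abca4Ko rod TRAP (SD, n = 3), against 159 ± 21.4 and 123 ± 27.8 in retina, and no defining microglia marker was at 0 in all rod TRAP libraries. Vascular markers were lower in 8 of 10 and higher in 1 of 10 in control, with Cdh5 listed at 0 in every rod TRAP library and a summed level of 2340 to 2570 TPM against 1180 to 1750, and Müller glia markers summed to 142 to 189 TPM against 3350 to 6480. The part of these cells in the lower Psmb8, Psmb9, Psmb10, Psme1 and Psme2 was not tested.

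The GC content of the transcript moved with the fraction values. Across 44 members with a GENCODE M21 transcript, Spearman's rho between GC content and the log2 fold change was -0.76 in control and -0.63 in Abca4Ko, and over all genes tested it was -0.47 and -0.39. Genes share their libraries and are not independent replicates. Psmc6 had the lowest GC content of the members at 37.0% and Psmd3 the highest at 58.3%. With the median of each GC bin removed, Psmb10, Psme2 and Psme2b kept their lower call in both genotypes, 12 of the 20 higher calls remained in control and 11 of 15 in Abca4Ko. Of the 7 alpha ring genes 2 turned past the threshold: Psma2 went from 0.38 to -1.32 and Psma3 from 0.88 to -0.67 in control, and Psmd10 turned likewise. None of the alpha ring genes called higher in control or Abca4Ko kept that call after GC correction, with Psma4 at 0.20 and Psma1 at -0.21 in control.

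**Figure D3:**
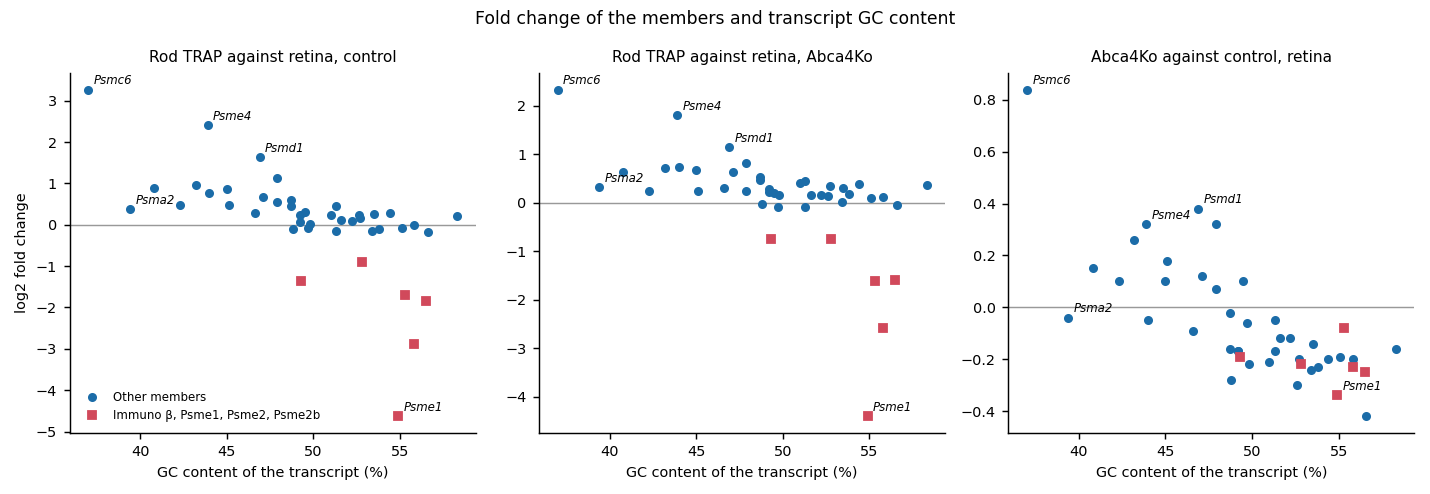
Log2 fold change (vertical axis) against the GC content of the transcript in percent (horizontal axis) for the proteasome genes, with rod TRAP against retina in control (left) and Abca4Ko (middle) and Abca4Ko against control in retina (right). Each point is a gene, and red squares are Psmb8, Psmb9, Psmb10, Psme1, Psme2 and Psme2b. Values fall as GC content rises in all 3 panels, with Psmc6 at the upper left of each.

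Reads of some members can be shared with near copies in the genome. Of 44 members with a transcript, 21 had no 31-base word in common with another gene and 11 shared over 20% of their words, among them Psme2b (78.4%), Psmb5 (74%), Psmb3 (66.8%), Psme2 (66.2%), Psma5 (64%), Psmd2 (45.3%), Psma4 (38.9%) and Psma3 (27.1%). Values of those genes, some of which were called between fractions, are uncertain where their reads can be split. Psmb8, Psmb9, Psmb10, Psme4 and Psmd12 shared none, Psmc6 shared 1.23%, Psmd1 8.92% and Psme1 22.1%.

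The second comparison asked whether loss of Abca4 changed the proteasome genes in rods. In rod TRAP none of 43 tested members was called by limma, against 1.09% of 13104 genes, and 2 had an unadjusted p under 0.05 (4.65%, against 10.4% of genes). Psmb8 and Psmb9 were too low to be tested there. Abca4 itself was not called by the same test, at -5.79 ± 1.81 in rod TRAP and -5.6 ± 1.59 in retina (limma adjusted p = 0.415 and 0.4). Its Abca4Ko replicate 3 lay far above the other replicates, and the SE of every tested member was smaller. The paper lists Abca4 among the genes that differ in Abca4Ko rods. An absent call thus does not show that a difference is absent. The members' median log2 fold change in rod TRAP was 0.03, against 0.00 for all genes. It was 0.08 without the rod TRAP library labelled Abca4Ko replicate 3 and -0.06 without replicate 1. Cone markers stood apart in the same comparison, with a summed level of 510 to 536 TPM in control and 604 to 755 in Abca4Ko, and their part in the values of the members was not tested.

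Psmd8, a lid scaffold subunit, stood at 2559, 2578 and 2696 scaled counts in the controls, against 2425, 2025 and 1937 in Abca4Ko. All Abca4Ko libraries were below all controls, with a log2 fold change of -0.29 ± 0.11 (limma adjusted p = 0.375), or -0.20 without replicate 3. Without Abca4Ko replicate 1 it was -0.43 and passed the threshold (limma adjusted p = 0.000169), as did Psmb5 at -0.28 (limma adjusted p = 0.0487). Without Abca4Ko replicate 3 Psmb5 was at -0.07 (limma adjusted p = 0.834). Psmd6, another scaffold subunit, had 777, 699 and 680 in control and 801, 862 and 807 in Abca4Ko, all higher, at 0.20 ± 0.09 (limma adjusted p = 0.477). The third smallest p was that of Psme2b, at 0.49 ± 0.27 (limma adjusted p = 0.582), with overlapping libraries.

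The scaled counts of the genotypes did not overlap in 2 members that were higher in Abca4Ko rod TRAP, Psmd6 and Psmd14, against 8.19% of all genes, and in 3 that were lower, Psmd8, Psmb5 and Psmf1, against 7.95%. Medians by subcomplex were 0.03 in the constitutive core and 0.03 in the regulatory particle, and the 6 base ATPases lay between 0.01 and 0.11. The catalytic Psmb5, Psmb6 and Psmb7 differed by -0.18 ± 0.11, 0.03 ± 0.11 and -0.02 ± 0.09, and Psmb10 by 0.10 ± 0.26. Of the caps, Psme1 differed by -0.02 ± 0.33, Psme2 by 0.06 ± 0.17, Psme3 by 0.01 ± 0.09 and Psme4 by -0.17 ± 0.13. The inhibitor Psmf1, with 608, 629 and 596 in control and 544, 576 and 595 in Abca4Ko, differed by -0.09 ± 0.09. None of these passed the test.

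In the whole retina none of 45 members was called, against 0.106% of 16964 genes, and 1 had an unadjusted p under 0.05 (2.22%, against 12.0% of genes). The median of the members was -0.14 and that of all genes -0.02, and 13 of 45 lay above 0. The median was -0.01 without the retina library labelled Abca4Ko replicate 3, -0.03 without control replicate 3 and -0.06 after GC correction. The scaled counts did not overlap in 2 members that were higher in Abca4Ko, Psmc6 and Psmd12, against 9.38% of genes, and in 7 that were lower, Psmd7, Psmd8, Psmd9, Psmb2, Psme3, Psmf1 and Psme3ip1, against 7.56%.

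Psmc6 had the largest difference in the retina, at 618, 540 and 319 scaled counts in the controls, against 1052, 655 and 906 in Abca4Ko. All Abca4Ko libraries were above the controls, at 0.84 ± 0.28 (limma adjusted p = 0.40). The difference was 0.86 without Abca4Ko replicate 3, 0.58 without control replicate 3 and 0.35 after GC correction. Psmb5 had 1441, 1338 and 1678 in control and 992, 1379 and 984 in Abca4Ko, with Abca4Ko replicate 2 inside the control range. The Psmb5 difference was -0.42 ± 0.19 (limma adjusted p = 0.418), or -0.27 without Abca4Ko replicate 3. Psmb5 shares 61.7% of its 31-base words with Gm3375, which the paper lists among the genes that differ in Abca4Ko rods. The part of shared reads in the Psmb5 genotype values of either fraction was not tested. Psmd12 had 868, 801 and 667 in control and 921, 927 and 1050 in Abca4Ko, at 0.32 ± 0.17 (limma adjusted p = 0.439).

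The immunoproteasome genes did not pass the test in retina. Psmb8 differed by -0.23 ± 0.31, Psmb9 by -0.08 ± 0.35 and Psmb10 by -0.25 ± 0.23, and the interferon-induced caps Psme1 and Psme2 by -0.34 ± 0.24 and -0.22 ± 0.22. The scaled counts of both genotypes overlapped for all 5 genes. In TPM those of Psmb10 did not, at 29.4 to 36.6 in control and 22.4 to 29.2 in Abca4Ko. Microglia markers had a median of -0.30 in the same comparison with none of 12 called, and their summed level was 143 to 183 TPM in control and 91.7 to 145 TPM in Abca4Ko. The mean summed level of every other cell type list was also lower in Abca4Ko retina. Single markers went both ways, with the rod marker Cnga1 at 0.77 and the cone marker Opn1mw at -0.65, neither of them called. Vascular markers were at 1590 TPM in control and 1310 in Abca4Ko, and pigment epithelium markers at 290 and 159. Their part in the values of the members was not tested. The remaining named genes were Psmb6 (-0.20 ± 0.21), Psmb7 (-0.16 ± 0.16), Psme2b (-0.19 ± 0.28), Psme3 (-0.22 ± 0.16), Psme4 (0.32 ± 0.26) and Psmf1 (-0.28 ± 0.15). None of the 4 pathway lists had a called gene in either genotype comparison. Among cell type markers 1 was called, the cone gene Gngt2 at 0.69 in rod TRAP (limma adjusted p = 0.0213).

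Transcript GC content moved with the retina values as well. Spearman's rho between GC content and the log2 fold change was -0.75 over 44 members and -0.65 over all genes in the retina, against 0.20 over 42 members and 0.12 over all genes in rod TRAP. The deviation of each gene from its mean over the libraries of the same fraction correlated with GC content at 0.66 in control retina replicate 3, -0.41 in Abca4Ko retina replicate 1 and -0.48 in Abca4Ko retina replicate 3, and between -0.08 and 0.20 in the other libraries. Genes share these libraries, and the GC-corrected values of Psmc6 and of the retina median stand above.

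**Figure D4:**
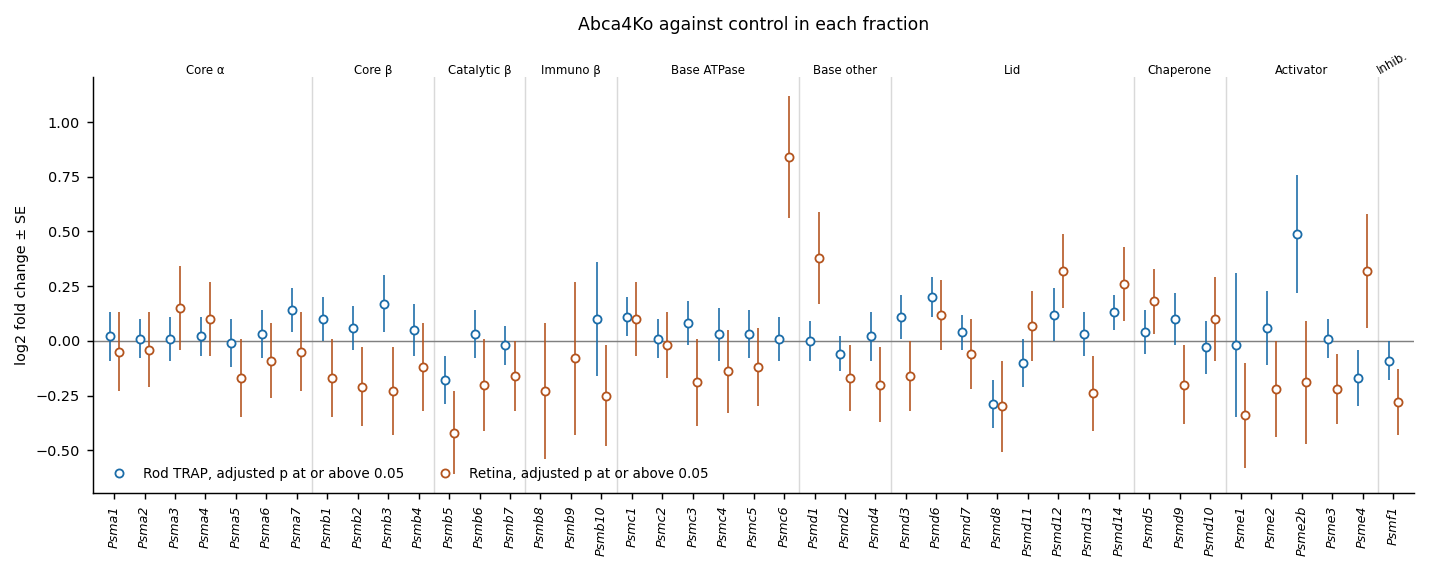
Log2 fold change of Abca4Ko against control ± SE (vertical axis) for the proteasome genes by subcomplex (horizontal axis), in rod TRAP (blue) and whole retina (brown). All points are open, since none had a limma adjusted p under 0.05. Rod TRAP values lie between -0.29 and 0.49, and Psmc6 in retina stands apart at 0.84.

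The last comparison asked whether the genotype difference itself differed between rod TRAP and retina. No member of 45 passed the interaction test, against 0.00579% of 17273 genes, and 1 had an unadjusted p under 0.05. The median interaction of the members was 0.13, against 0.01 for all genes, and it was 0.04 without both Abca4Ko libraries numbered 3. Psmc6 had the smallest p, at -0.85 ± 0.32 (limma adjusted p = 0.407), with a genotype difference of 0.01 ± 0.10 in rod TRAP and 0.84 ± 0.28 in retina. It was -0.85 without both libraries numbered 3 and -0.33 after GC correction. Psmd1 differed by -0.41 ± 0.24 (limma adjusted p = 0.525) and Psme4 by -0.52 ± 0.30 (limma adjusted p = 0.53). Psmb5, Psmb6 and Psmb7 had interactions of 0.21 ± 0.22, 0.21 ± 0.24 and 0.11 ± 0.18, and Psmb10 of 0.33 ± 0.36. Psmb8 and Psmb9 had at most 2 scaled counts in any rod TRAP library and entered this fit through the retina. It could not measure their genotype difference in rods, and their interactions are not given. Psme1, Psme2, Psme2b and Psme3 had 0.30 ± 0.45, 0.25 ± 0.27, 0.69 ± 0.42 and 0.20 ± 0.18, and Psmf1 had 0.17 ± 0.16. None of these passed the test, which does not show that the genotype difference was alike in both fractions.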

How the data were processed

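Poly(A) RNA was isolated before and after rod TRAP from flash-frozen, cycloheximide-perfused retinas, 3 libraries in each of 4 groups. cDNA was made with the SMARTer Ultra Low Input kit from 5 ng (lysate) or 10 ng (TRAP) of RNA. The submitters' processing notes name CASAVA 1.8.2, HISAT2, DESeq2, edgeR and GRCm39. The roles of these tools, the annotation and any batch are not given in the sources used here. The authors deposited a table of scaled counts, whole numbers with nearly equal totals per fraction, which is treated as a score and not as raw counts, and a table of TPM. A count test between groups was therefore not used. The exact intervals of Psmb8, Psmb9, Psmb10 and Psme1 do treat summed scaled counts as counts, and are approximate for that reason.

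Scaled counts were rescaled by trimmed means of M values (trims 0.3 and 0.05), taken to log2(CPM + 0.5) and tested with limma 3.58.1 (R 4.3.3, statmod 1.5.0; trend, robust, two-sided) over all genes with at least 10 scaled counts in at least 3 libraries of the fit. Adjusted p is Benjamini-Hochberg over all genes tested, with a threshold of 0.05. Tables and figures were made in Python 3.11.15 with numpy 2.4.6, scipy 1.17.1, pandas 2.3.3 and matplotlib 3.10.9, and the fits were tested on simulated data. Alternatives were the authors' scaling alone, median-ratio factors, log2(TPM + 1), an offset of 2, no filter or at least 50 scaled counts, no moderation by trend, 1 fit of all 12 libraries, the replicate block and each library left out. Correction in 20 GC bins, alone or with the block, and leaving out both Abca4Ko libraries numbered 3 were chosen after seeing the data. GC content and near copies came from GENCODE M21 (GRCm38), which matched 44 of 45 members by symbol.

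Between fractions the replicate block treated same-numbered libraries as pairs. Over 9338 genes, deviations of same-numbered rod TRAP and retina libraries correlated at 0.614, 0.166 and 0.622 in Abca4Ko and at 0.142, 0.16 and 0.18 in control. Within a genotype every rod TRAP library correlated best with its own number except Abca4Ko 2, which did so with retina 3 (0.366). Abca4Ko retina 3 and control retina 2 correlated at 0.739, so that the correlations do not settle the pairing. Members and lists were chosen with earlier results of these data known. Named were members past the threshold and the 3 smallest p in genotype comparisons, the 5 highest and 5 lowest fold changes between fractions, the 3 smallest p of the interaction, catalytic, inducible, cap and inhibitor genes throughout, the highest and lowest level of each subcomplex and up to 3 genes per list. Other members named for their subcomplex were chosen after their values were seen.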

Additional observations from a re-analysis of the deposited data

How the results depend on the processing

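With trimmed-mean scaling the members' median between fractions was 0.24 in control and 0.25 in Abca4Ko. On the authors' scaling alone it was -0.40 and -0.28, on log2(TPM + 1) -0.05 and 0.04, with median-ratio factors 0.13 in control and in 1 fit of all 12 libraries 0.15 in control. The cause was not tested, and the median of all genes moved in the same direction. On the authors' scaling Psmb6, Psmb7 and Psme3 were at -0.64, -0.19 and -0.61 in control and at -0.42, -0.06 and -0.39 in Abca4Ko, and on log2(TPM + 1) Psmb6 was at -0.33 in control. With GC bins Psmb5 was at 0.33 in control, and with GC bins and the replicate block at 0.33 in both genotypes, where the cause was not tested. Leaving out each library in turn gave members' medians between 0.12 and 0.25 in control (0.15 without control retina 1, 0.12 without control retina 2) and between 0.17 and 0.30 in Abca4Ko, with 20 to 27 and 16 to 18 members called. The median of the genotype comparison lay between -0.06 and 0.08 in rod TRAP, with 0 to 2 calls, and between -0.19 and -0.01 in retina, with 0 calls. That of the interaction lay between 0.00 (without Abca4Ko retina 3) and 0.16. The replicate block, with 19 higher and 6 lower members in control and 21 and 6 in Abca4Ko, changed no count by over 1.5 times. In the genotype comparisons the libraries share only a number, and the block called 0 members with medians of 0.03 and -0.14. Of 1241 values of single named genes under alternatives, 1156 kept their sign and their side of the threshold. A further 51 changed sign, or were 0.00 in 1 of the settings compared, without passing it in either. In 10 a call was lost and in 14 a call was gained. The 10 reversed ones are the values of Psmb5, Psmb6, Psmb7 and Psme3 given above. The 1241 values leave out Psma2, Psma3 and Psmd10, which turned past the threshold with GC correction in control. Psmb8 and Psmb9 were too low in rod TRAP for a test between genotypes there.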
